A study of Mus musculus with 12 samples.

Results

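The region described here is the Tnfaip3 locus with its upstream flank, a window of 350 kb on mouse chromosome 10 (mm9, chr10:18700000-19050000). Open chromatin of macrophages grown from bone marrow had been mapped by ATAC-seq, an assay that tags accessible DNA with adapters carried by the Tn5 transposase. All peaks of the 12 libraries inside the window were taken, and peaks that overlapped by at least 1 bp were chained into regions. This gave 42 regions from 314 peaks, out of 115231 regions and 886143 peaks over the genome. The window was chosen because many of its regions appear with lipopolysaccharide (LPS, a molecule of the outer membrane of Gram-negative bacteria), so the contrast of LPS times with 0 h is described and not tested. The contrast of genotypes was not used in that choice and was tested.

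The cells came from female C57BL/6 mice that were either wild type (WT) or lacked the lincRNA-EPS gene, which makes a long noncoding RNA (lincRNA-EPS knockout, KO). Bone marrow of both genotypes was cultured for 9 days with 20% L929 macrophage growth supplement and then given LPS at 100 ng/ml for 0, 2 or 6 h, and each transposition used 50000 cells. The 6 groups have 2 libraries each, and whether both came from different animals or cultures is not stated in the labels. The spread between them may therefore be technical, and p-values measure no other spread. In all 4 lists of the libraries labelled 2 h, the names of the peaks give 1 h, so the true time of those libraries could be 1 h. The lists hold no gene levels, so neither the cell type nor the deletion could be checked from them.

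Tnfaip3 encodes A20, a ubiquitin-editing enzyme that restrains NF-kB signalling downstream of Toll-like and tumour necrosis factor receptors. LPS is sensed by TLR4, which activates NF-kB, and NF-kB in turn induces Tnfaip3, so that A20 acts as a negative feedback on the pathway. LincRNA-EPS is a nuclear RNA known as a restrainer of immune response genes in macrophages. In the RefSeq table of mouse genes on GRCm38.p6, Tnfaip3 lies on the minus strand, with the protein-coding gene Perp next to it on the side of lower coordinates and the lncRNA genes Gm51814 and 1700124M09Rik next to it on the side of higher coordinates. Higher coordinates are therefore the upstream direction of Tnfaip3. No gene annotation of mm9 was used here, so no region could be assigned to a promoter, exon or intron, and regions are named by position and by their distance from the region that ranked highest in the window.

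The sequence before the Tnfaip3 start is shown because NF-kB is the known inducer of the gene. It is the 250 bases upstream of the RefSeq start on GRCm38.p6, chr10:19015411-19015660, minus strand, written 5′ to 3′. Capitals mark matches on either strand to a loose form of the NF-kB motif, GGG and CC with 5 bases of any kind between them.
Tnfaip3 upstream: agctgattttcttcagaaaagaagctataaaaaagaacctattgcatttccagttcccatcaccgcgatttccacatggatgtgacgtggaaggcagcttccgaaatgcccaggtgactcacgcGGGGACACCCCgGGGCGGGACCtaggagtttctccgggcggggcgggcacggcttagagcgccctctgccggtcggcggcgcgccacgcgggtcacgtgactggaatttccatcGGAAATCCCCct
There were 4 matches, starting 126, 125, 114 and 12 bases before the start, of which the first and second overlap. The same letters occurred in 45.8% of 32851 upstream windows of this length. The AP-1 motif TGANTCA matched 1 time, starting 136 bases before the start, and occurred in 6.75% of all windows. Searched on both strands, this stretch held no match to GAGGAAGT (PU.1, in 2.44% of windows), the ISRE motif (TTTC, 2 bases of any kind and TTTC, in 2.98%) or TTGCNNAA (C/EBP, in 9.56%). Because this sequence belongs to another build than the peaks, it was not set against any region of the window.

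The lists held 54771 to 91610 peaks per library, and the background coverage recovered from the deposited values ran from 1.43 to 3.35 reads. Lists were longest at 6 h, with 84324 ± 5517 peaks against 63573 ± 5911 at 0 h (SD, n = 4). Background coverage was 2.59 ± 0.553 reads at 6 h and 2.01 ± 0.504 reads at 0 h. Both were on average higher at 6 h than at 0 h, as were the numbers of calls, and 2 ways of evening out the lists are given beside the counts they change. The sources used here give no read totals.

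The window held more called regions at the later times. At 0 h the WT libraries called 18 and 19 regions and the KO libraries 18 and 18. At 2 h the WT libraries called 25 and 21 regions and the KO libraries 24 and 22. At 6 h the WT libraries called 32 and 36 regions and the KO libraries 38 and 32. The 3 times did not overlap, while the genotypes overlapped at each time. Means were 18.25 ± 0.5 at 0 h, 23 ± 1.83 at 2 h and 34.5 ± 3 at 6 h (SD, n = 4). The length covered by peaks was 9513 ± 539 bp at 0 h, 12740 ± 628 bp at 2 h and 17286 ± 1345 bp at 6 h. As a share of each library's list, the peaks of the window made up 0.0304 ± 0.00211% at 0 h, 0.0326 ± 0.00174% at 2 h and 0.0418 ± 0.0015% at 6 h, so the window's count was larger at 6 h also relative to the longer lists. When every library was cut to its 54771 strongest peaks, the means were 15.25, 16.25 and 22 regions.

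**Figure D1:**
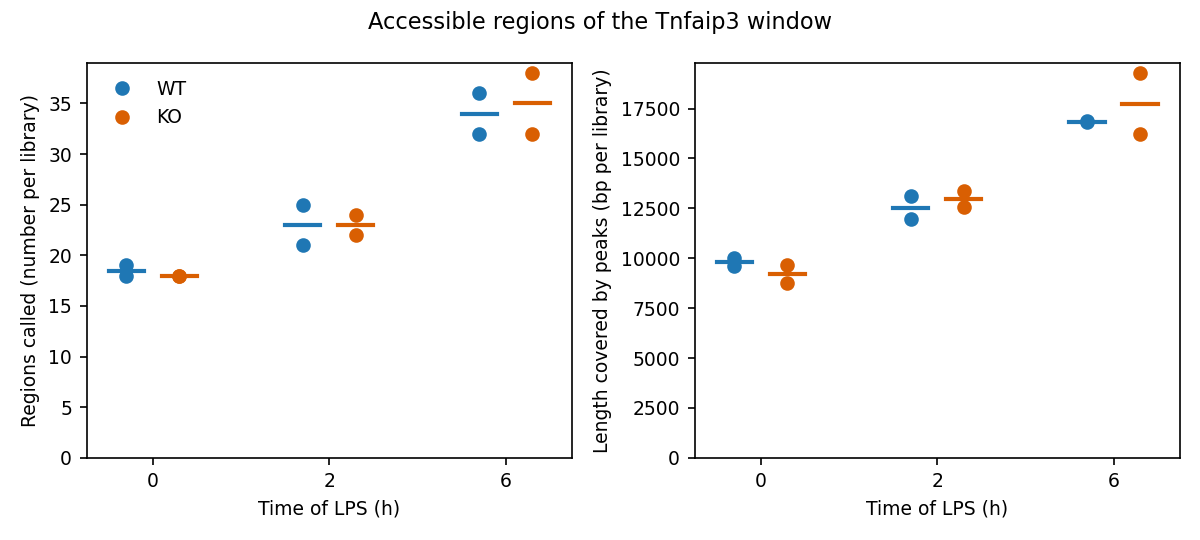
Accessible regions of the window in each library. The left panel gives the number of regions called and the right panel the length covered by peaks (bp), against time of LPS (h), for WT and KO libraries as points with the group mean as a bar. All libraries at 6 h, with 32 to 38 regions, lie above all libraries at 0 h, with 18 or 19.

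By calls, the 42 regions fell into 3 kinds. Regions called in all 12 libraries numbered 12 (37.2% of all regions of the genome). A further 9 had a call in each of the 4 libraries at 6 h but none at 0 h, and are termed gained by 6 h (5.54% of all regions, a share from which nothing is read because the window was chosen on this contrast). The other 21 regions were called in 1 to 11 libraries, and 16 of them were called in more libraries at 6 h than at 0 h (65.7% of regions of this kind over the genome). Every one of the 42 regions was called in at least 1 library at 6 h (89.9% of all regions), against 24 at 0 h (68.2%) and 28 at 2 h (77.1%). No region was lost by 6 h (0.127% of all regions) or by 2 h (0.00434%), loss being a call in all 4 libraries at 0 h and in none at the later time. A single region was gained by 2 h (0.789%). From 2 h to 6 h, 8 regions were gained (3.34%). Regions called in 1 library only numbered 3 (15.6%).

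The window is among the densest of its length for regions gained by 6 h. Of 5781 tiles of 350 kb over the genome that held a region, 4 had more than 9 gained regions and 3, this window included, had 9. The median tile had 1 gained region and 18 regions in all, and 478 tiles had more than the 42 regions found here. These ranks describe the choice of the window and have no test.

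**Figure D2:**
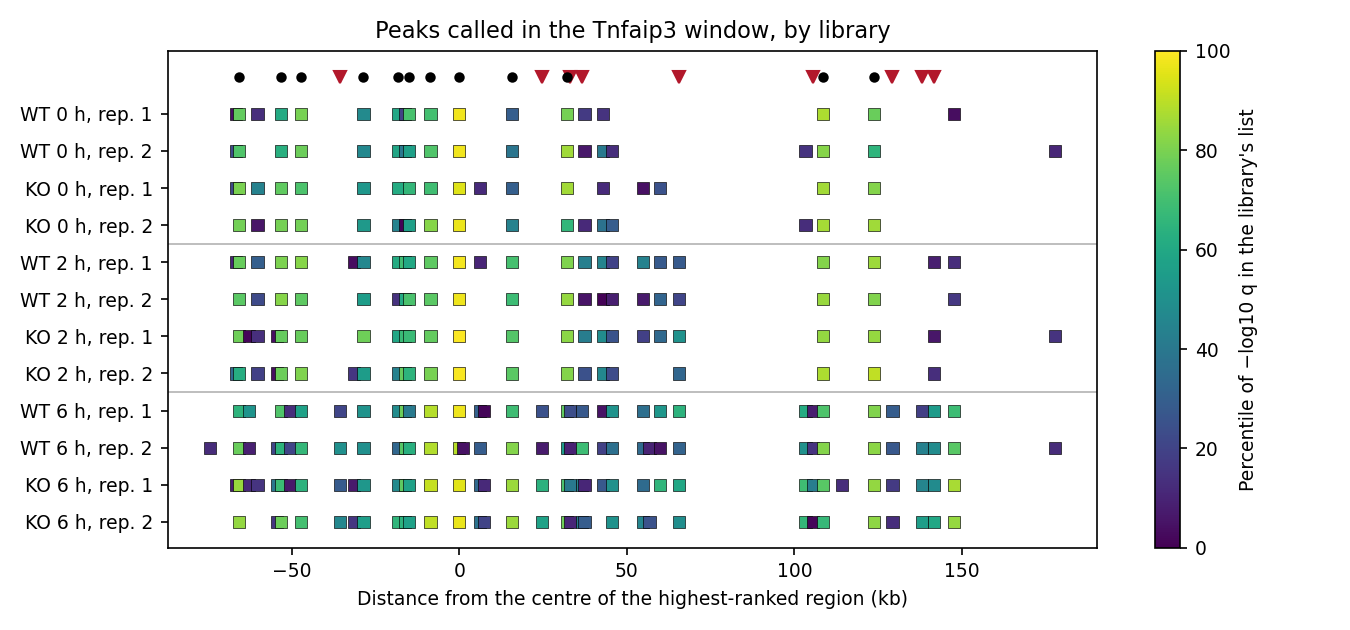
Calls along the window, by library. Each square is a region called in the library of that line, placed by distance (kb) from the centre of the highest-ranked region and coloured by the percentile of its −log10 q within that library's list; dots at the top mark the 12 regions called in every library and triangles the 9 gained by 6 h. The squares above +100 kb are more numerous at 6 h, while the dotted columns are filled at all times.

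Most of the gained regions lay on the same side of the region of highest rank. The region of highest rank in the window, chr10:18781662-18782775, is the reference for distances, and 8 of the 9 gained regions lay on its side of higher coordinates, between 24.8 and 142 kb from it, with 1 on the other side, at 35.6 kb. Of the other 11 regions called in every library, 4 lay on the side of higher coordinates and 7 on the other. By length, most of the window also lies on the side of higher coordinates, since it runs from 18700000 to 19050000. Whether the gained regions are uneven beyond this was not tested. The largest gap between neighbouring regions inside the window was 37221 bp, against a median gap of 3811 bp. A longer stretch without any region runs from the end of the last region, 18960135, to the window's end at 19050000. At the edges of the window, the first region inside, chr10:18707674-18707962, was called in 1 library and the last, chr10:18959869-18960135, in 3. The nearest regions outside were chr10:18684508-18685191, called in all 12 libraries, and chr10:19072734-19072933, called in 1.

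Only 1 of the gained regions was already called in all libraries at 2 h. This region, chr10:18847612-18848093, lies 65.6 kb from the reference, in a stretch followed by the largest gap between neighbouring regions of the window. The fold of its summit over local background, as the authors' peak caller gave it, was 5.45 and 5.42 in WT and 7.91 and 5.69 in KO at 2 h. At 6 h it was 9.02 and 5.97 in WT and 8.51 and 7.57 in KO. The genotypes overlapped at 6 h, and at 2 h the KO values were above the WT values by little in 1 library and by more in the other. The fold is each peak's own value and describes its height within a library. Another, chr10:18923754-18924202, came close to being gained by 2 h, with calls in WT replicate 1 at a fold of 4.21 and in both KO libraries at 4.22 and 4.45. At 6 h its folds were 7.90 and 7.49 in WT and 6.69 and 8.52 in KO, all above those at 2 h. Without WT replicate 2 at 2 h, the count gained by 2 h was 2 in place of 1.

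The other 7 gained regions had no call in any library at 2 h. At chr10:18806803-18807205 the folds were 5.18 and 4.40 in WT and 9.21 and 8.33 in KO at 6 h, so that both KO libraries lay above both WT libraries. With 2 libraries a genotype, an exact permutation test at 1 time cannot give p below 0.333, so this difference has no test. On the side of lower coordinates, the only gained region, chr10:18746314-18746872, had folds of 4.90 and 7.86 in WT and 5.29 and 7.25 in KO, with overlapping genotypes. Folds at chr10:18920002-18920509 were 4.79 and 6.58 in WT and 6.18 and 7.84 in KO. By contrast, chr10:18911329-18911658 had 5.45 and 5.66 in WT and 4.60 and 4.73 in KO, where the WT libraries were the higher ones. The order of the genotypes thus differed from one gained region to the next.

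The remaining 3 gained regions had the lowest mean folds of the 9. Of these, chr10:18815124-18815535 had folds of 3.64 and 3.24 in WT and 4.08 and 3.40 in KO, and chr10:18887434-18887968 had 3.27 and 3.5 in WT and 4.22 and 2.99 in KO. The third, chr10:18818509-18819121, had 3.82 and 6.88 in WT and 4.31 and 4.64 in KO, with WT replicate 2 apart from the rest. These 3 regions had local backgrounds of 2.95, 2.72 and 2.94 times the library background at 6 h, whereas the other 6 gained regions had between 1 and 1.2 times. A fold over local background is lower for the same summit where that background is high.

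As a group, the gained regions were of middling to low strength. Their mean percentile of −log10 q within the lists at 6 h ran from 16.6 to 52.6, with a median of 38.4. Their summit coverage at 6 h was 0.306 to 0.722 times the library's median over regions called in every library, with a median of 0.48. Their median width was 482 bp, against 486 bp for all 6389 gained regions of the genome, and 847 bp for the 12 regions of the window called in every library.

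**Figure D3:**
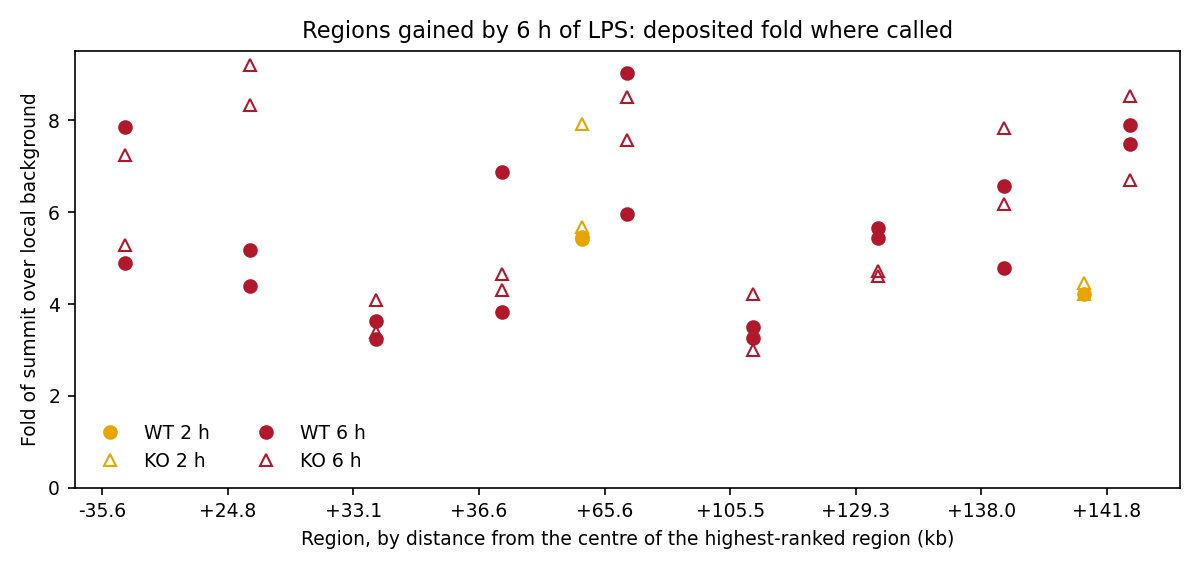
Deposited fold of summit over local background for the 9 gained regions, in order of distance (kb) from the highest-ranked region. Each point is 1 library that called the region, circles for WT and triangles for KO, at 2 h or 6 h; no library called them at 0 h. Folds at 6 h lie between 2.99 and 9.21, and only the regions at +65.6 and +141.8 kb have points at 2 h.

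The number of gained regions depended on how the lists were evened out. With the 54771 strongest peaks of each library, 2 regions were gained by 6 h, and of the 9 only chr10:18923754-18924202 was among them, while no region was gained by 2 h. With the recovered coverage of each peak scaled to the library of lowest background, 8 of the 9 were still gained by 6 h, and chr10:18887434-18887968 was called in 3 of 4 libraries. A threshold of 5 on −log10 q gave the same result for these 9. Within genotypes, where gain means a call in 2 of 2 libraries at 6 h and in none at 0 h, WT gained 14 regions (9.89% of all regions) and KO gained 13 (12.5%). The 9 gained in both were 64.3% of those of WT and 69.2% of those of KO, against 56% and 44.5% over the genome. These shares rest on few regions here and have no test. By 2 h, WT gained 3 regions (2.97%) and KO gained 3 (5.01%). By 6 h, WT lost 2 regions (1.46%) and KO lost none (0.499%).

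Several further regions, picked after their values were seen, fell just outside the definition of gain. The region at chr10:18929333-18930168 was the strongest of these at 6 h, with folds of 10.1 and 12 in WT and 13.8 and 13.9 in KO. It was called at 0 h in WT replicate 1 alone, at 4.18, and at 2 h in WT alone, at 4.46 and 5.12. At 6 h both KO libraries were above both WT libraries, although the earlier calls were in WT. Its percentile within the lists at 6 h, 78.4 ± 8.65 (SD, n = 4), was above that of each of the 9 gained regions. Likewise, chr10:18885315-18885764 was called in WT replicate 2 and KO replicate 2 at 0 h, at 4.66 and 5.15, in no library at 2 h, and in all 4 at 6 h, at 6.95 and 5.68 in WT and 6.72 and 7.24 in KO. Similarly, chr10:18788134-18788529 was called in 1 library at 0 h, 1 at 2 h and 4 at 6 h, where its fold was 4.92 ± 0.58.

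The region at chr10:18765770-18766297 was called in 11 of 12 libraries and missed only KO replicate 1 at 0 h. Its folds were 4.17 and 5.16 in WT and 3.36 in the other KO library at 0 h. They were 7.11 and 6.77 in WT and 6.82 and 7.70 in KO at 2 h, and 8.03 and 7.80 in WT and 7.41 and 6.68 in KO at 6 h. Each library at 2 h and 6 h was above each library that called it at 0 h.

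Between 37 and 60 kb from the reference on the upstream side lay 6 regions with mixed calls. Calls at chr10:18824710-18825362 were made in 4, 4 and 3 libraries at 0, 2 and 6 h, and at chr10:18819320-18819869 in 3, 4 and 2. With more calls at the later times, chr10:18827314-18828219 was called in 2, 4 and 4 libraries, chr10:18836711-18837214 in 1, 3 and 4, and chr10:18841986-18842407 in 1, 3 and 3. The remaining one, chr10:18838792-18839160, was called in 2 libraries at 6 h only. In this stretch most regions already had calls at 0 h and 2 h. The 9 gained ones have no call at 0 h by definition. Among them, chr10:18847612-18848093 and chr10:18923754-18924202 had calls at 2 h.

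For the 12 regions called in every library, the rank of the −log10 q among the 42811 regions of the genome called in every library could be set side by side, since each library then has a list of the same length. A rank of 100 is the strongest. From 0 h to 6 h, mean rank was higher for 3 of the 12 and lower for 9, with a median change of -8.34, against -0.85 over all 42811. Libraries at 6 h lay above those at 0 h without overlap for 2 of the 12 (11.4% of all) and below without overlap for 2 (12% of all). The changes are differences between places in a list and are not changes in absolute openness.

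The reference region at chr10:18781662-18782775 kept the highest rank of the window at every time. Its ranks were 96.7 and 96.7 in WT and 92.4 and 96.3 in KO at 0 h, 96.6 and 95.9 in WT and 98.8 and 98.1 in KO at 2 h, and 94.9 and 79.2 in WT and 90.7 and 93.7 in KO at 6 h. Times overlapped, and WT replicate 2 at 6 h was lowest. Its summit coverage relative to the library median was 2.54 ± 0.193 at 0 h, 2.58 ± 0.143 at 2 h and 2.04 ± 0.256 at 6 h, lower at 6 h than at 0 h without overlap.

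The region 15.7 kb upstream of the reference, chr10:18797465-18798371, had the largest change of rank in the window. Its ranks at 0 h were 7.2 and 13.5 in WT and 8.29 and 30.4 in KO. They were 46.9 and 48.9 in WT and 55.0 and 55.8 in KO at 2 h, and 44.2 and 64.3 in WT and 68.8 and 73.2 in KO at 6 h. All libraries at 2 h and 6 h were above all libraries at 0 h, and both KO libraries were above both WT libraries at 2 h and at 6 h. Relative summit coverage was 0.437 ± 0.0778 at 0 h, 0.856 ± 0.101 at 2 h and 1.10 ± 0.177 at 6 h (SD, n = 4). This region was called at 0 h, which the 9 gained regions by definition were not. Most of its difference was present at 2 h.

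The region at chr10:18773279-18774005, 8.58 kb below the reference, was higher at 6 h but not at 2 h. Its ranks were 53.7 and 57.1 in WT and 53.5 and 76.6 in KO at 0 h, 55.5 and 58.0 in WT and 59.4 and 64.7 in KO at 2 h, and 79.2 and 77.1 in WT and 81.1 and 82.3 in KO at 6 h. KO replicate 2 at 0 h stood apart from the other 3 libraries and was just under the lowest library at 6 h. Relative summit coverage was 0.853 ± 0.16, 0.822 ± 0.0588 and 1.16 ± 0.0543 at the 3 times, again without overlap between 0 h and 6 h.

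Lower ranks at 6 h without overlap were found at chr10:18734229-18735700, the widest region of the window at 1472 bp, and at chr10:18890310-18891155. The former had ranks of 67.8 and 64.8 in WT and 57.0 and 72.6 in KO at 0 h, and 27.4 and 39.0 in WT and 30.9 and 48.2 in KO at 6 h. Its relative summit coverage, 1.46 ± 0.148 at 0 h and 1.23 ± 0.103 at 6 h, overlapped between the times. The latter had ranks of 80.9 and 71.9 in WT and 78.9 and 82.8 in KO at 0 h, and 49.4 and 63.9 in WT and 47.6 and 43.6 in KO at 6 h. Its relative summit coverage was also lower without overlap, 1.35 ± 0.129 at 0 h and 0.951 ± 0.114 at 6 h. At 2 h both regions had mean ranks near those at 0 h, 63.4 ± 4.18 and 73.1 ± 4.9.

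Of the rest, chr10:18813888-18814735 had a mean rank of 70 ± 10.4 at 0 h, 69.5 ± 3.69 at 2 h and 45.2 ± 16.9 at 6 h, and times overlapped. Mean ranks at chr10:18905611-18906523 were 66 ± 15.1, 74.9 ± 6.15 and 66.8 ± 1.74. The remaining 5 regions had mean ranks of 28.6 to 65.4 at 0 h and 19.0 to 58.1 at 6 h, each with overlapping times. Over the 12 regions, relative summit coverage was higher at 6 h without overlap for 2 (11.9% of all) and lower for 2 (17.7% of all).

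**Figure D4:**
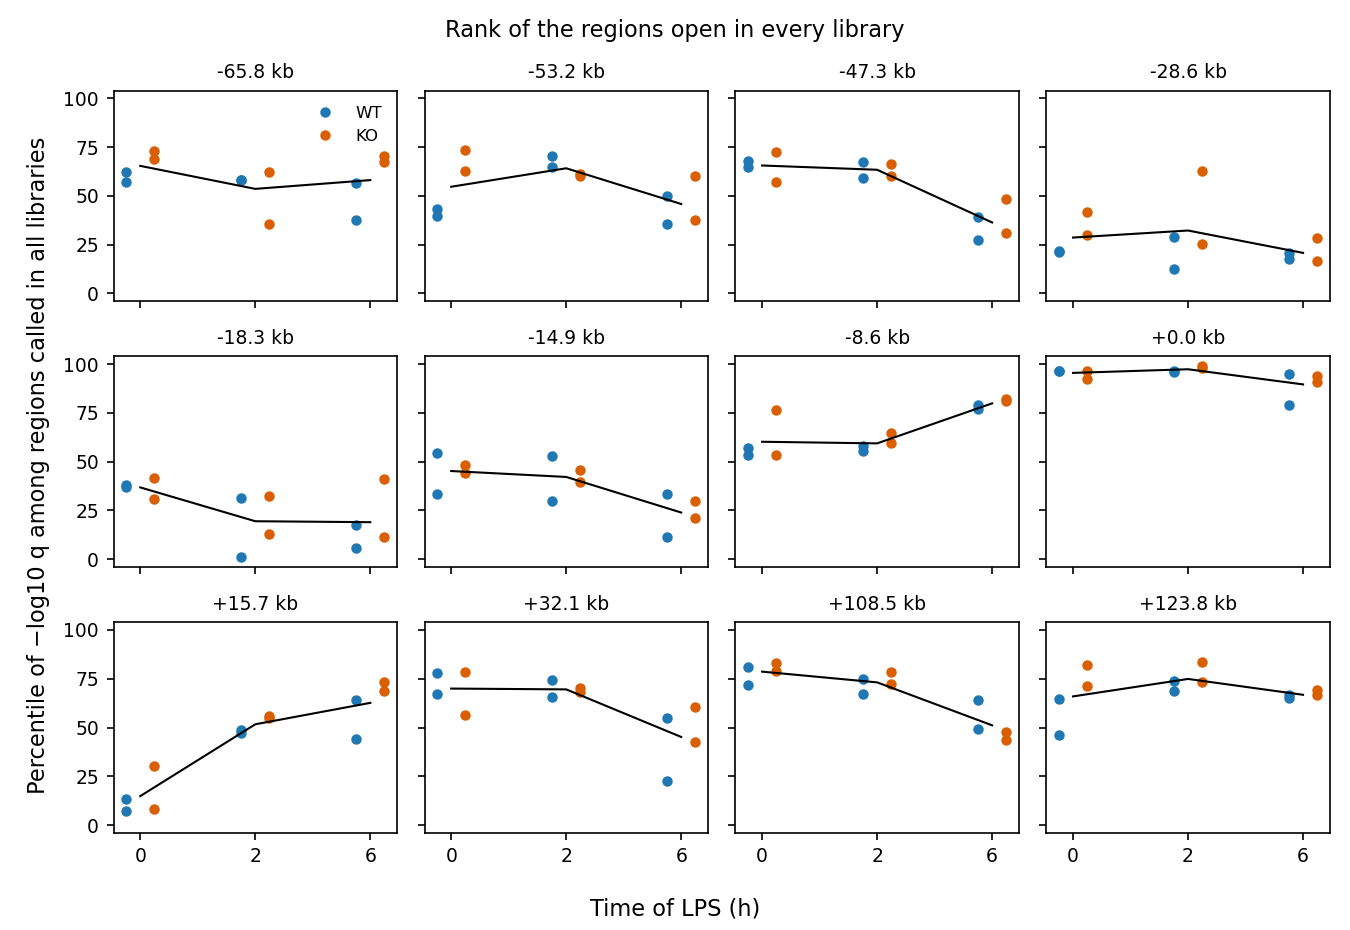
Rank of the 12 regions called in every library, 1 panel per region, titled by distance (kb) from the highest-ranked region. The vertical axis is the percentile of −log10 q among the 42811 regions called in all libraries, the horizontal axis the time of LPS (h, evenly spaced), points are libraries (WT blue, KO orange) and the line joins the means of 4. The panels at -8.6 and +15.7 kb have all libraries at 6 h above those at 0 h, and those at -47.3 and +108.5 kb have them below.

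The local background recovered at these regions was also higher at 6 h in part of the window. The local background, which the peak caller takes from the sequence around a peak, was divided by the library's own background. The share of the peak's own reads in it was not separated. The ratio has a floor of 1, since the lowest local background of a list served as the library background. This ratio was higher at 6 h than at 0 h without overlap for 6 of the 12 regions (19% of all) and lower without overlap for none (9.12% of all), and its median change was 1.30-fold against 1.02-fold over all 42811. At the 3 regions lowest in coordinates it was 2.15 ± 0.183 at 0 h and 4.06 ± 0.484 at 6 h (chr10:18716103-18716710), 3.65 ± 0.626 and 6.43 ± 0.387 (chr10:18728322-18729631), and 3.79 ± 0.496 and 5.45 ± 0.281 (chr10:18734229-18735700). These 3 neighbours lie within 20 kb of each other, and for each the mean at 2 h was between those at 0 h and 6 h.

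At chr10:18728322-18729631 the ratio was 3.08 and 3.25 in WT and 4.46 and 3.83 in KO at 0 h, 5.45 and 5.90 in WT and 5.69 and 5.33 in KO at 2 h, and 6.07 and 6.64 in WT and 6.15 and 6.87 in KO at 6 h. KO libraries were above WT libraries at 0 h and the genotypes overlapped later. The ratio was also higher at chr10:18797465-18798371, where it was 1 in all 4 libraries at 0 h and 2.23 ± 0.251 at 6 h, and at chr10:18813888-18814735, with 1.45 ± 0.227 and 2.61 ± 0.096. The smallest of the 6 was at chr10:18773279-18774005, with 1.04 ± 0.0578 and 1.47 ± 0.177. At the reference region it was 4.59 ± 0.537 and 4.42 ± 0.293, with overlapping times. A higher local background lowers the fold and the −log10 q for a given summit, so rank and relative coverage measure different things at these regions.

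**Figure D5:**
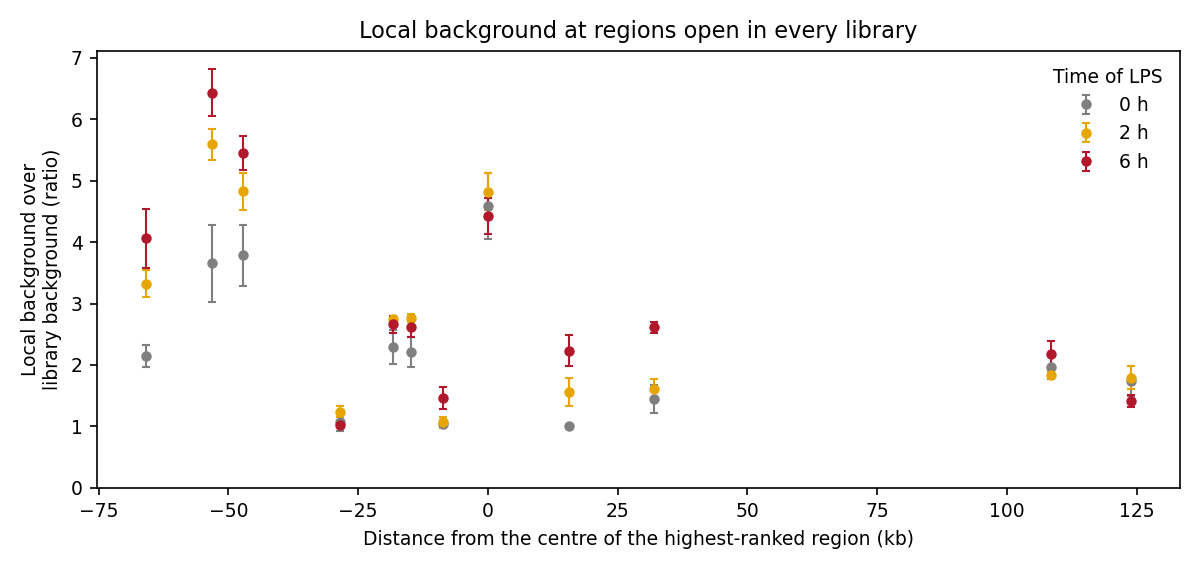
Local background over library background (ratio) at the 12 regions called in every library, against distance (kb) from the highest-ranked region. Points are means of 4 libraries at 0, 2 and 6 h and bars are SD; for the 3 regions at the left, between -65.8 and -47.3 kb, means run in the order 0, 2 and 6 h.

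The comparison of genotypes asks whether loss of lincRNA-EPS was accompanied by other accessibility at this locus. Over the 12 libraries, KO libraries called 25.3 ± 8.07 regions of the window and WT libraries 25.2 ± 7.36 (SD, n = 6), a difference of 0.167 (exact two-sided permutation test with labels exchanged within time, p = 1; adjusted over the 2 measures 1). The difference was -0.5 at 0 h, 0 at 2 h and 1 at 6 h. Covered length was 13297 ± 3963 bp in KO and 13062 ± 3186 bp in WT, a difference of 236 bp (exact permutation p = 0.759, adjusted 1). The smallest p this design can give is 0.00926, with libraries of different times taken as independent. When every library was cut to its 54771 strongest peaks, KO libraries called 2.67 more regions than WT libraries (exact permutation p = 0.037, not adjusted). Group means were then 16.5 against 14 at 0 h, 17 against 15.5 at 2 h and 24 against 20 at 6 h. Covered length in this setting was higher in KO by 834 bp (exact permutation p = 0.12, not adjusted). This was 1 of several alternative settings. With coverage scaled to the library of lowest background the difference in regions had the opposite sign, -0.667 (exact permutation p = 0.667).

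Regions of the window that separated the genotypes by calls numbered 0 to 2 per genotype and time. None was called in 2 of 2 libraries of 1 genotype and 0 of 2 of the other at 0 h (2.45% of all regions for WT only, 0.505% for KO only). At 2 h there was 1 for WT only (1.34%), chr10:18929333-18930168, and 1 for KO only (1.22%), chr10:18727662-18727977. At 6 h there was none for WT only (1.2%) and 2 for KO only (1.91%), chr10:18750684-18751175 and chr10:18819320-18819869. In the window, 1 region is 2.38% of the 42 and 2 regions are 4.76%, and nothing is read from counts this small. No region was called in all 6 libraries of 1 genotype and none of the other (0.00868% of all regions for WT only, 0.00174% for KO only), and none separated the genotypes at more than 1 time. The counts within a time rest on few libraries. Leaving out 1 library at a time gave 0 to 3 at 0 h and 1 to 3 at 2 h. At 6 h it gave 0 to 4 for WT only and 2 to 5 for KO only. Leaving out a library also loosens the rule, so a count can rise for that reason alone. Each of the 12 libraries except WT replicate 2 at 6 h moved at least 1 of these counts by over 1.5 times when left out.

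The rank of the regions called in every library was tested with limma on normal scores, with time as a factor, over all 42811 regions. Of the 12 in the window, 0 passed an adjusted p of 0.05 (0.00467% of all, 2 regions), and the smallest adjusted p by limma was 0.709. At an unadjusted limma p under 0.05 there were 2 of 12 (6.93% of all). These were chr10:18753374-18753938, with a score higher in KO by 0.403 (SE 0.182, adjusted p by limma 0.709), and chr10:18905611-18906523, higher in KO by 0.296 (SE 0.137, adjusted p by limma 0.72). All 12 estimates were higher in KO, against 49.9% of all regions, with a median of 0.197. With the rank of the fold the count was 10, and without WT replicate 1 at 6 h it was 9. The 12 share a window and the same 12 libraries, and the sign alone was not tested.

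For the regions whose ranks at 0 h and 6 h did not overlap, the intervals of the KO minus WT score were wide. At chr10:18797465-18798371 it was 0.321 (95% interval -0.015 to 0.658), at chr10:18773279-18774005 0.179 (-0.0821 to 0.439), at chr10:18734229-18735700 0.0467 (-0.23 to 0.323) and at chr10:18890310-18891155 0.00271 (-0.271 to 0.276). The unit is 1 SD of the normal scores, not a step in rank. The test of whether the change from 0 h to 6 h differed by genotype called 0 of the 12 regions, and 0% of all regions, with a smallest adjusted p by limma of 0.868. At an unadjusted limma p under 0.05 it called 0 of 12 as well, against 6.07% of all. With log2 of the relative summit coverage in place of rank, a setting chosen after seeing the data, limma called 0 of the 12 for genotype (0.0888% of all, 38 regions) and 0 for the difference in change (0% of all). At an unadjusted p under 0.05 there were 3 of 12 (7.89% of all) and 1 of 12 (7.2% of all). A p that misses the threshold does not show that the genotypes are alike at this locus.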

How the data were processed

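Each library has its own peak list, made by the authors on mm9 with Bowtie2 2.1.0, Picard and MACS2, as named in the submitters' processing notes. The sources used here do not give the MACS2 settings or how duplicates and the Tn5 offset were handled. Duplicates, if kept, would raise peak values. By the peak names in the deposited lists, each library was called by itself. The deposited lists give for each peak a score, a fold ratio of summit over local background, and −log10 p-values and q-values, all the authors' own values.

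Regions, ranks and counts were computed in Python 3.11.15 (pandas 2.3.3, numpy 2.4.6, scipy 1.17.1). Limma 3.58.1 (R 4.3.3) was fitted over all 42811 regions called in every library, with Benjamini-Hochberg adjustment and a threshold of 0.05. Summit coverage and local background, in reads, were solved from fold, taken as coverage plus 1 over background plus 1, and the Poisson p, which gave back the deposited log10 p to within 0.001 for 100% of peaks. The lowest local background of a list served as the library background. A region that was not called may be open below the calling limit, and calls carry no counting interval. The analysis was tested on simulated data.

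The members and lists were chosen with earlier results of these data known. Regions named by rule were those gained or lost, those that separated the genotypes at 2 or more times, the 5 of highest mean rank among regions called in every library, and any past the limma threshold. All others were named after their values were seen. Alternatives were a −log10 q of at least 5, chaining by at least 100 bp, equal numbers of peaks, scaled coverage (kept at a −log10 p of at least 4.28), rank of the fold, a replicate block and leaving out each library. Within a time, replicate numbers did not pair WT with KO libraries. Whether same-numbered libraries of different times share an animal or culture is not stated and was not checked. The tests take them as independent, and their p-values would not hold if cultures had been split over times.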

Additional observations from a re-analysis of the deposited data

Results flagged for a closer look

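In 4 of 45 groups of 4 libraries at 1 time, the highest or lowest library was far from the other 3 by Dixon's criterion, which chance meets in about 1 in 20 groups. The number of regions called in the window at 0 h was 19 in WT replicate 2 and 18 in the other 3 libraries, a step of 1 region. The rank of chr10:18773279-18774005 at 0 h was 76.6 in KO replicate 2, above the other 3 libraries and still under the lowest library at 6 h. The rank of chr10:18781662-18782775 at 0 h was 92.4 in KO replicate 1, below the other 3. The rank of chr10:18716103-18716710 at 2 h was 35.6 in KO replicate 2, below the other 3. By calls, no region was gained by 6 h in WT and lost in KO, or the reverse. By rank, which was looked at after the values were seen, the genotypes moved in opposite directions for chr10:18905611-18906523, without overlap within either genotype. In WT the 6 h libraries ranked 65.0 and 66.5, above both 0 h libraries (64.5 and 46.0), by little for the nearest pair. In KO the 6 h libraries ranked 66.5 and 69.2, below both 0 h libraries (71.5 and 81.8). The limma test of a genotype difference in this change gave an adjusted p of 0.868. At chr10:18728322-18729631 the KO libraries also ranked lower at 6 h, with 37.7 and 60.2 against 62.6 and 73.5 at 0 h. The WT libraries there overlapped between the times, with 49.9 and 35.7 at 6 h against 39.5 and 43.1 at 0 h.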

How the results depend on the processing

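With a −log10 q of at least 5, WT-only regions at 0 h numbered 1 and KO-only regions at 2 h numbered 0. With equal numbers of peaks, 0 regions were gained by 2 h and 2 by 6 h, and KO-only regions numbered 1 at 0 h and 1 at 6 h. KO minus WT was then 2.67 regions per library (exact permutation p = 0.037) and 834 bp of covered length (exact permutation p = 0.12), neither p adjusted. With scaled coverage, KO-only regions numbered 0 at 2 h and 1 at 6 h, WT-only regions at 6 h numbered 2, and KO minus WT was -0.667 regions per library (exact permutation p = 0.667). The cause of these shifts was not tested. Leaving out each library gave 12 to 13 regions called in every library, 1 to 2 gained by 2 h, 9 to 11 gained by 6 h and 0 lost. With a library left out the rules for calls are looser, so these counts and those by genotype can rise for that reason alone. WT-only and KO-only counts ranged from 0 to 2 and 0 to 3 at 0 h, 1 to 3 and 1 to 3 at 2 h, 0 to 4 and 2 to 5 at 6 h, and were 0 over all times. KO minus WT ranged from -0.833 to 1 region (exact permutation p 0.528 to 1), negative without WT replicate 2 (-0.5) or KO replicate 1 (-0.167) at 2 h and without WT replicate 1 (-0.5) or KO replicate 1 (-0.833) at 6 h. Covered length ranged from -270 to 742 bp (exact permutation p 0.278 to 0.981), negative without KO replicate 1 at 6 h. The limma tests called 0 of the 12 regions under every alternative run. With each library left out, smallest adjusted p-values by limma were 0.574 to 0.803 for genotype and 0.624 to 0.916 for its difference between 0 h and 6 h. The changes in rank kept their sign except for chr10:18905611-18906523, which went from 0.821 to -5.80 without WT replicate 2 at 0 h.

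Same-numbered WT and KO libraries did not deviate together (correlations of -0.0054, -0.0032 and 0.0013 at 0, 2 and 6 h). With replicate number as a block, KO minus WT was 0.167 regions (exact permutation p = 1) and 236 bp (exact permutation p = 0.656), and limma called 0 regions, so the block changed no call. Mean background coverage was 2.01, 2.80 and 2.59 reads at 0, 2 and 6 h, and with coverage scaled to the library of lowest background the mean regions per library were 18.25, 21.75 and 32.5.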
